A study of Mus musculus with 17 samples.

Results

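The genes described here encode subunits of the mitochondrial respiratory chain, taken as 52 named genes out of the 31053 rows of a single count table. Of these, 43 are encoded in the nucleus and 9 in mitochondrial DNA (mt- genes), and every member passed the filter on low counts. The nuclear members cover complex I (23 genes), complex II (4), complex III (6), cytochrome c (1) and complex IV (9), whereas the mt- members cover complex I (4), complex III (1), complex IV (3) and ATP synthase (1). The question was how nuclear and mt- members compare by day, because the mitochondrial share of counts differs between libraries. Counts came from MARS-seq, a 3' end RNA-seq method primed on the poly-A tail, in bulk libraries of cardiac fibroblasts (CFs) sorted from infarcted hearts of mice aged 8 to 10 weeks. All mice carried the Collagen1a1-GFP+ genotype on the C57BL/6 strain and underwent ligation of the left anterior descending artery, and GFP+/CD31-/CD45- cells were sorted 1, 2, 3, 4, 5 or 6 days post-infarction (dpi). The 17 libraries comprise 3 from each of 1, 2, 4 and 6 dpi, 4 from 3 dpi and 1 from 5 dpi, and uninfarcted CFs were not analysed here. The Col1a1 promoter drives GFP, so cells without activity of this promoter fall outside the sort, and each library pools 3000 to 10000 cells.

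Oxidative phosphorylation passes electrons from NADH (through complex I) and from succinate (through complex II) to ubiquinone, complex III, cytochrome c and complex IV, and ATP synthase uses the resulting proton gradient. Complex II is wholly nuclear encoded, whereas complexes I, III and IV and ATP synthase combine nuclear subunits, imported from the cytosol, with subunits made inside the organelle. The mt- transcripts are cut from long precursors copied from mitochondrial DNA and receive a short poly-A tail, so a poly-A primed method captures them near their 3' end. In some of them the tail itself completes the stop codon.

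The last 30 bases of the coding sequence of the 9 mt- members are shown because priming starts from the tail downstream of them, close by in most, whereas mt-Nd5 and mt-Co1 among others carry untranslated sequence in between. Capitals mark the stop codon bases present in the DNA. They come from the GENCODE vM21 transcripts (GRCm38, chromosome M, plus strand).

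mt-Nd1: tttacagcgggagtaccaccatacataTAG
mt-Nd2: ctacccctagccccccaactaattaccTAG
mt-Nd4: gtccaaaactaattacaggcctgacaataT
mt-Nd5: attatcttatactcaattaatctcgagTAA
mt-Cytb: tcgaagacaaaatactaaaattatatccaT
mt-Co1: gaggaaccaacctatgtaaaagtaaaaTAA
mt-Co2: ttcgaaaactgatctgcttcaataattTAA
mt-Co3: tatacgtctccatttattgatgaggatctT
mt-Atp6: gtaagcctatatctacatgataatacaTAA

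Of the 9, mt-Co3 (chrM:8607-9390), mt-Nd4 (chrM:10167-11544) and mt-Cytb (chrM:14145-15288) end on a lone T of the stop codon, and the other 6 carry a full TAA or TAG. The end of mt-Atp6 (chrM:7927-8607) overlaps the start of mt-Co3 by 1 base, and its start lies inside mt-Atp8, so reads of these neighbours cannot always be told apart.

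Library totals ran from 8021815 to 22029938 counts. Fibroblast genes (Col1a1, Col3a1, Pdgfra, Dcn and 4 others) summed to between 12404 and 39730 counts per 1e+06 (CPM) in every library, against at most 431 CPM for 17 cardiomyocyte genes, 239 CPM for 10 leukocyte genes, 206 CPM for 6 pericyte and smooth muscle genes and 161 CPM for 7 endothelial genes. Erythroid genes (hemoglobins and Alas2) reached 2687 CPM. Replicate 2 at 3 dpi and replicate 3 at 4 dpi stood apart from the other libraries of their days. Replicate 3 at 6 dpi differed from its day in the mt- genes and also over all genes. Without it the calls over all genes for 6 against 4 dpi went from 72 to 1402. Calls are therefore also given without these libraries. The nuclear members' mean level in replicate 3 at 4 dpi was 6.81 on the log2 CPM scale, against 7.57 and 7.65 in replicates 1 and 2, and its erythroid sum was the 2687 CPM above. Sex-linked genes differed by day: the 4 and 6 dpi libraries and replicate 1 at 1 dpi held more Xist than Y-linked counts, and all others held fewer. Libraries at 3 dpi also carry a naming scheme in the labels that no other day has. Day and naming thus cannot be told apart between 2 and 3 dpi, nor day, sex pattern and naming between 3 and 4 dpi. Fewer cells of a type and less RNA per cell cannot be told apart in bulk samples either.

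The 9 mt- members together took 1.85%, 1.48% and 1.45% of all counts at 1 dpi, and 1.35%, 1.62% and 1.70% at 2 dpi. Their share was 0.321%, 0.616%, 0.781% and 0.388% at 3 dpi, then 1.22%, 1.35% and 2.04% at 4 dpi. The 5 dpi library had 0.619%, and those of 6 dpi had 0.457%, 0.424% and 1.71%. Every 3 dpi library was thus below every library of 1, 2 and 4 dpi, and at 6 dpi replicates 1 and 2 were low while replicate 3 was within the range of 1 and 2 dpi. The 43 nuclear members together showed no such change, with a share between 0.761% and 1.18% in all 17 libraries. Their lowest share was in 4 dpi replicate 3, the library with the highest mt- share, and their highest was in the 5 dpi library.

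**Figure D1:**
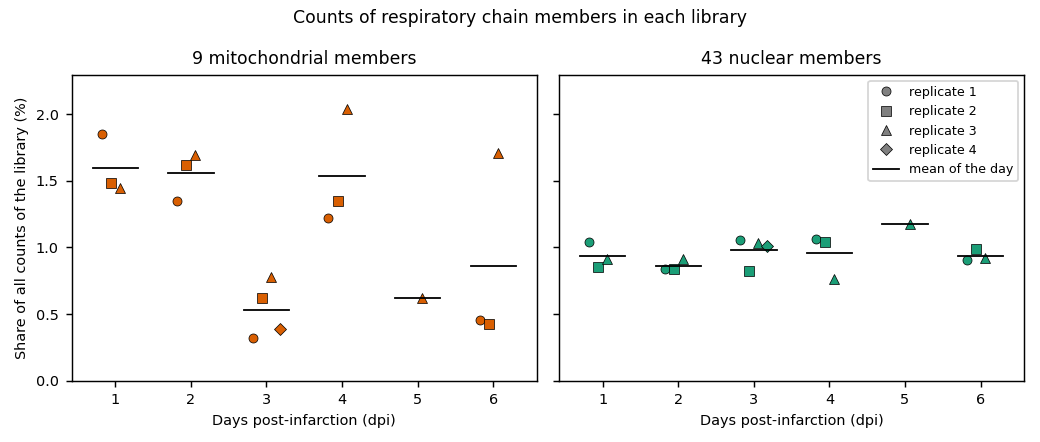
Share of all counts of each library (%) taken by the 9 mitochondrial members (left) and the 43 nuclear members (right) against days post-infarction; each point is a library, its shape the replicate number, and lines are means of the day. The mitochondrial share at 3 dpi sits between 0.321% and 0.781%, below every library of 1, 2 and 4 dpi, while the nuclear share stays between 0.761% and 1.18%.

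The counts of mt- members outnumbered those of nuclear members 1.59- to 1.78-fold at 1 dpi and 1.62- to 1.93-fold at 2 dpi. At 3 dpi the ratio was 0.304, 0.748, 0.756 and 0.384, so nuclear members outnumbered mt- members in all 4 libraries. It was 1.14, 1.30 and 2.69 at 4 dpi, 0.525 at 5 dpi and 0.504, 0.430 and 1.85 at 6 dpi.

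Averaged over members, levels are given as log2 CPM after TMM scaling with a prior count of 2. The mean level of the mt- members was 10.19 ± 0.29 (SD, n = 3) at 1 dpi, 10.05 ± 0.35 (n = 3) at 2 dpi, 7.68 ± 1.13 (n = 4) at 3 dpi, 10.07 ± 0.08 (n = 3) at 4 dpi, 7.48 in the 5 dpi library and 9.01 ± 1.15 (n = 3) at 6 dpi. That of the nuclear members was 7.29 ± 0.21, 7.20 ± 0.11, 7.20 ± 0.10, 7.34 ± 0.46, 7.57 and 7.30 ± 0.09 on the same days. Subtracting the nuclear from the mt- mean left a gap of 2.90 ± 0.09 on the first day and 2.85 ± 0.24 on the next. In the 3 dpi libraries the gap averaged 0.49, from -0.73 in replicate 1 to 1.54 in replicate 2, and it was negative in replicates 1 and 4 (-0.36). Its mean was 2.73 ± 0.54 at 4 dpi, whereas the lone 5 dpi library had -0.09 and 6 dpi averaged 1.71 ± 1.13. Libraries of 3 dpi overlapped in this gap with neither 2 nor 4 dpi, whereas the nuclear mean overlapped in every comparison of days. The spread within 3 dpi and within 6 dpi was wider than within 1 and 2 dpi for the mt- members.

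**Figure D2:**
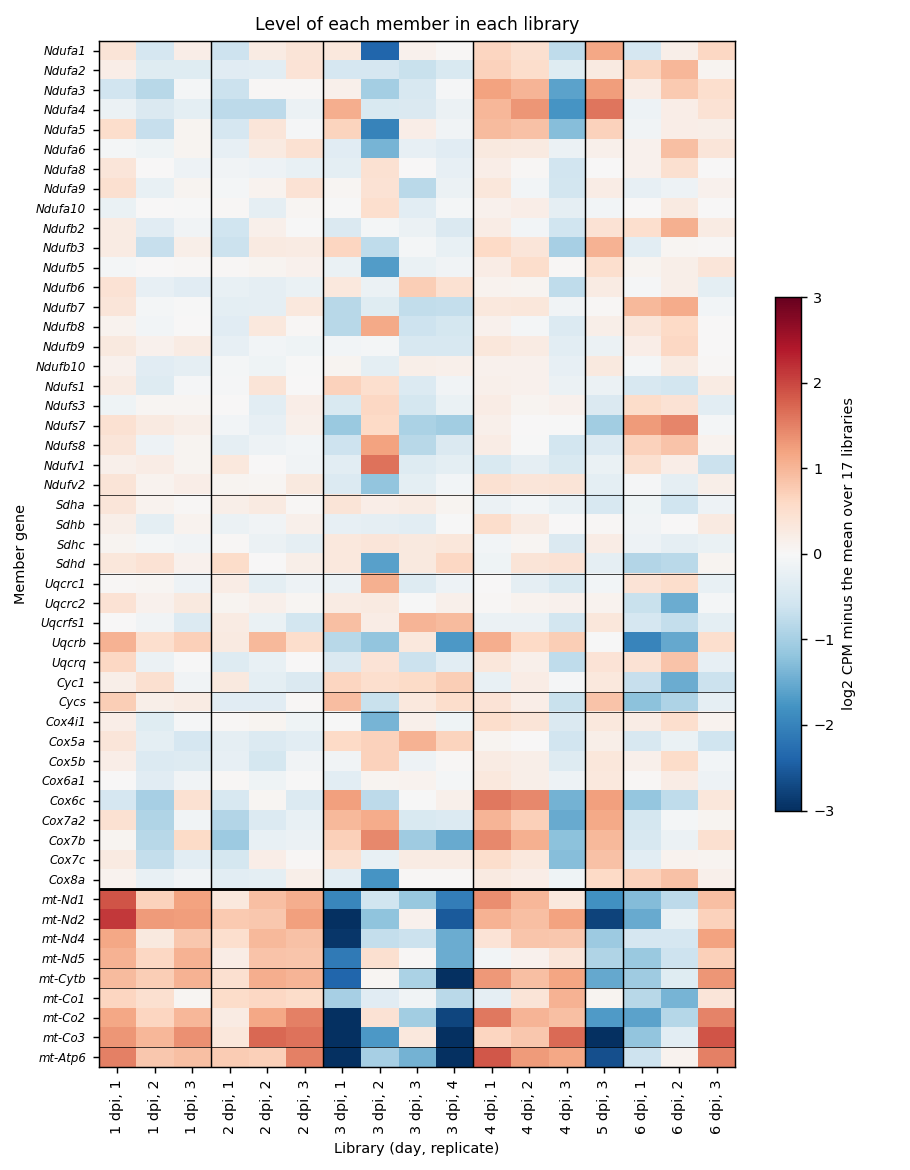
Level of each of the 52 members (rows, by complex; thick line between nuclear genes above and mt- genes below) in each of the 17 libraries (columns), as log2 CPM minus the gene's mean over all libraries, red for higher and blue for lower. The mt- rows are mostly blue in 3 dpi, in the 5 dpi library and in 6 dpi replicates 1 and 2. Nuclear rows vary less and without a direction shared by the libraries of a day. In many of them 3 dpi replicate 2 is apart from its day, and their mean level is lowest in 4 dpi replicate 3 (6.81).

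Ranked by how far the mean level moved between days (5 dpi, with 1 library, left out), the 9 mt- members spanned 1.21 to 3.64 on the log2 scale with a median of 2.81. The 43 nuclear members spanned 0.09 to 1.81 with a median of 0.63. The lowest day was 3 dpi for 8 of 9 mt- members and 6 dpi for mt-Co1. Among nuclear members 3 dpi was the lowest day for 14 of 23 complex I genes, 1 of 4 complex II, 1 of 6 complex III and 2 of 9 complex IV genes. The highest day was 6 dpi for 13 of the 23 complex I genes and for 5 of the other 20 nuclear members. No share of all genes was computed for lowest or highest days, so these counts have no background. Some 3 dpi means of complex I genes also depend on replicate 2, which was low in some and high in others. It was at 4.76 for Ndufa1 (others of the day 7.18 to 7.45) and 8.11 for Ndufs7 (others 6.38 to 6.56).

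Among the mt- subunits of complex I, mt-Nd1 stood at 11.44, 10.27 and 10.76 at 1 dpi, 9.87, 10.46 and 10.65 at 2 dpi, 7.61, 8.97, 8.43 and 7.49 at 3 dpi, 10.96, 10.55 and 9.89 at 4 dpi, 7.74 at 5 dpi, and 8.25, 8.77 and 10.47 at 6 dpi. The level of mt-Nd2 was 9.39, 8.53 and 8.51 at 1 dpi, 8.06, 8.06 and 8.50 at 2 dpi, 4.04, 6.06, 7.39 and 4.74 at 3 dpi, 8.30, 8.16 and 8.47 at 4 dpi, 4.49 at 5 dpi, and 5.75, 7.05 and 7.96 at 6 dpi. For mt-Nd4 it was 11.55, 10.68 and 11.18 at 1 dpi, 10.90, 11.37 and 11.26 at 2 dpi, 7.47, 9.66, 9.73 and 8.89 at 3 dpi, 10.79, 11.22 and 11.20 at 4 dpi, 9.30 at 5 dpi, and 9.87, 9.88 and 11.59 at 6 dpi. In these 3 genes, which encode core membrane subunits of complex I, every 3 dpi library was below every library of 1, 2 and 4 dpi, and the 5 dpi library lay within the range of 3 dpi. mt-Nd5, another membrane subunit, had 8.50, 8.10 and 8.51 at 1 dpi, 7.69, 8.31 and 8.29 at 2 dpi, 5.35, 7.96, 7.50 and 5.97 at 3 dpi, 7.38, 7.60 and 7.83 at 4 dpi, 6.56 at 5 dpi, and 6.34, 6.85 and 8.17 at 6 dpi. Its 3 dpi replicate 2 lay within the range of 2 dpi, and replicates 1 and 4 were the lowest of all libraries.

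mt-Cytb, the cytochrome b of complex III, stood at 10.75, 10.54 and 10.83 at 1 dpi, 10.27, 10.88 and 10.80 at 2 dpi, 7.41, 9.84, 8.83 and 6.03 at 3 dpi, 11.09, 10.69 and 10.98 at 4 dpi, 8.25 at 5 dpi, and 8.73, 9.42 and 11.11 at 6 dpi. The catalytic core subunit of complex IV, mt-Co1, was at 12.78, 12.61 and 12.19 at 1 dpi, 12.69, 12.75 and 12.69 at 2 dpi, 11.13, 11.80, 12.02 and 11.31 at 3 dpi, 11.86, 12.51 and 13.18 at 4 dpi, 12.21 at 5 dpi, and 11.29, 10.73 and 12.49 at 6 dpi. It was the most abundant member in CPM in every library and the mt- gene with the smallest movement between days. For mt-Co2, which carries the site that accepts electrons from cytochrome c, levels were 9.80, 9.28 and 9.64 at 1 dpi, 8.87, 9.79 and 10.16 at 2 dpi, 5.46, 9.06, 7.59 and 5.87 at 3 dpi, 10.21, 9.66 and 9.55 at 4 dpi, 6.93 at 5 dpi, and 7.03, 7.78 and 10.12 at 6 dpi. mt-Co3, the third mt- subunit of complex IV, had 9.68, 9.35 and 9.73 at 1 dpi, 8.70, 10.07 and 9.98 at 2 dpi, 5.16, 6.62, 8.67 and 4.98 at 3 dpi, 9.01, 9.16 and 10.06 at 4 dpi, 5.37 at 5 dpi, and 7.17, 8.03 and 10.24 at 6 dpi. Replicates 1 and 4 of 3 dpi were the lowest of that day in mt-Cytb, mt-Co1, mt-Co2 and mt-Co3. The level of mt-Atp6, the subunit of ATP synthase that forms the proton path with the rotor ring, was 10.60, 9.90 and 10.00 at 1 dpi, 9.86, 9.81 and 10.60 at 2 dpi, 5.88, 8.09, 7.67 and 5.87 at 3 dpi, 10.95, 10.37 and 10.25 at 4 dpi, 6.46 at 5 dpi, and 8.47, 9.19 and 10.60 at 6 dpi. No 3 dpi library overlapped with 1, 2, 4 or 6 dpi in mt-Atp6.

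**Figure D3:**
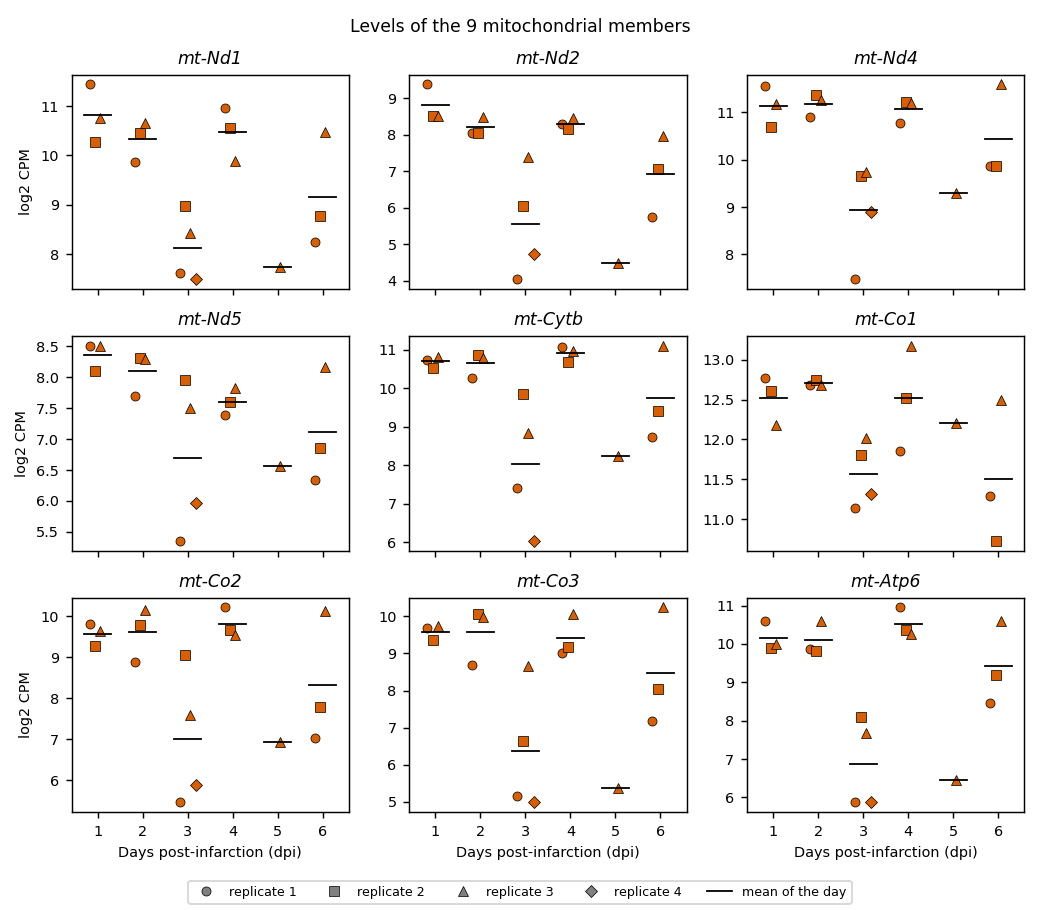
Level of each mitochondrial member (log2 CPM, each panel with its own scale) against days post-infarction; points are libraries, shaped by replicate number, and lines are means of the day. In 7 of the 9 panels every 3 dpi library is below every 2 dpi library; mt-Nd5 and mt-Co2 overlap.

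The mt- members did not move in proportion. mt-Co1 made up 75.3%, 50.8%, 59.7% and 72.7% of the counts of the 9 members at 3 dpi and 75.8% in the 5 dpi library, against 26.8% to 50.9% in the libraries of the other days. At 3 dpi mt-Atp6 made up 1.97%, 3.89%, 2.93% and 1.67%, against 5.54% to 9.20% at 2 dpi and 6.68% to 14.4% at 4 dpi. Without mt-Co1, the mt- members took 0.0793% to 0.315% of all counts at 3 dpi and 0.664% to 1.03% at 2 dpi.

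The first pair of days asks whether the chain changed between 1 and 2 dpi. No nuclear and no mt- member passed the threshold (edgeR's quasi-likelihood test, Benjamini-Hochberg adjusted p under 0.05 over 14030 genes). Of all genes tested, 0.178% passed. No member had an unadjusted p under 0.05 either, where 1063 of the 14030 genes did, and none was called by DESeq2, where 0.741% were. The median log2 fold change was -0.05 over the nuclear and -0.04 over the mt- members, and 0.01 over all genes.

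From 2 to 3 dpi, 4 of 9 mt- members fell and none rose, against a background of 2.94% of all genes called (1.12% lower and 1.82% higher). The 4 were mt-Nd1, mt-Nd2, mt-Nd4 and mt-Atp6. The log2 fold change in edgeR's quasi-likelihood test was -2.92 (SE 0.52, adjusted p = 0.0054) for mt-Atp6, -2.11 (SE 0.47, adjusted p = 0.018) for mt-Nd1, -2.01 (SE 0.45, adjusted p = 0.020) for mt-Nd4 and -2.10 (SE 0.56, adjusted p = 0.046) for mt-Nd2. The other 5 did not pass after adjustment, with log2 fold changes of -2.54 for mt-Co3, -2.02 for mt-Cytb, -2.01 for mt-Co2, -1.10 for mt-Co1 and -1.07 for mt-Nd5. The median was -2.02 over the 9 mt- members, 0.01 over the nuclear members and 0.04 over all genes tested. All libraries of 3 dpi were below all of 2 dpi in 7 of 9 mt- members, a separation that 8.95% of all genes showed. Without 2 dpi replicate 2 or 3 or 3 dpi replicate 4, only mt-Atp6 of the mt- members passed. Of all genes 0.33%, 0.953% and 1.41% passed in these fits. Without 3 dpi replicate 1 there were 2 mt- members, where 1.49% of all genes passed. Without 3 dpi replicate 2 together with 6 dpi replicate 3 all 9 passed, where 8.51% of all genes did.

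Among the nuclear members 2 of 43 rose from 2 to 3 dpi and none fell. Cox5a encodes a structural subunit of complex IV (chr9:57521274-57532426) and stood at 8.90, 8.23 and 8.03 at 1 dpi, 8.27, 8.11 and 8.21 at 2 dpi, 9.13, 9.23, 9.57 and 9.21 at 3 dpi, 8.61, 8.55 and 7.95 at 4 dpi, 8.70 at 5 dpi, and 8.05, 8.32 and 7.93 at 6 dpi. All its 3 dpi libraries were above all of 2 dpi, and the log2 fold change was 1.09 (SE 0.25, adjusted p = 0.024 by edgeR's quasi-likelihood test). Uqcrfs1, the Rieske iron-sulfur protein of complex III (chr13:30540308-30545362), had 6.85, 6.74 and 6.43 at 1 dpi, 7.10, 6.65 and 6.29 at 2 dpi, 7.75, 7.07, 7.87 and 7.80 at 3 dpi, 6.66, 6.68 and 6.29 at 4 dpi, 7.18 at 5 dpi, and 6.34, 6.13 and 6.55 at 6 dpi. Replicate 2 was the lowest of its 3 dpi libraries and lay below the highest 2 dpi library, and the log2 fold change was 0.94 (SE 0.25, adjusted p = 0.046 by edgeR's quasi-likelihood test). Neither passed without 2 dpi replicate 2, without 2 dpi replicate 3 or without 3 dpi replicate 4, and Uqcrfs1 passed in 10 of 26 alternative fits. All 3 dpi libraries were above all of 2 dpi in 4 nuclear members (Ndufb6, Sdhc, Cyc1 and Cox5a) and below them in 5 (Ndufa2, Ndufa6, Ndufb5, Ndufb7 and Ndufv2), shares near the 9.70% and 8.95% of all genes.

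From 3 to 4 dpi the direction turned. Of the mt- members 5 rose and none fell, against 2.71% of all genes called (1.63% higher and 1.08% lower). mt-Atp6 rose by a log2 fold change of 3.34 (SE 0.53, adjusted p = 0.0018 by edgeR's quasi-likelihood test), and mt-Nd1 (2.28, SE 0.47), mt-Cytb (2.28, SE 0.60), mt-Nd2 (2.20, SE 0.56) and mt-Nd4 (1.91, SE 0.45) had adjusted p = 0.012, 0.046, 0.042 and 0.028 in the same edgeR test. The values for mt-Co3, mt-Co2, mt-Co1 and mt-Nd5, which did not pass, were 2.33, 2.14, 1.00 and 0.56. Over the 9 mt- members the median was 2.20, over the nuclear members 0.15 and over all genes tested -0.03. All 4 dpi libraries were above all of 3 dpi in 7 mt- members (not mt-Nd5 and mt-Co1), which 8.64% of all genes showed. Of the mt- members only mt-Atp6 passed without 4 dpi replicate 1, where 1.08% of all genes did. Without 3 dpi replicate 1 or 4 or 4 dpi replicate 2 or 3, 2 mt- members passed. Of all genes 1.29%, 1.68%, 0.904% and 2.19% did in these fits. There were 3 mt- members without any of the 2 dpi libraries or 1 dpi replicates 2 and 3 in turn. Between 1.99% and 2.36% of all genes passed in those.

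Of the nuclear members 1 fell from 3 to 4 dpi, Uqcrfs1, by 1.10 on the log2 scale (SE 0.25, adjusted p = 0.022 by edgeR's quasi-likelihood test), and none rose. All its 4 dpi libraries were below all 3 dpi libraries. The call was lost without 3 dpi replicate 1, 3 or 4 and without any of the 4 dpi libraries, and without 3 dpi replicate 2 there were 4 nuclear members past the threshold, where 5.17% of all genes were. Cox5a had -0.90 (SE 0.25) and did not pass (adjusted p = 0.064 by edgeR's quasi-likelihood test). All 4 dpi libraries were below all 3 dpi libraries in Sdha, Sdhc, Uqcrfs1, Cyc1 and Cox5a, where 8.06% of all genes were, and above in Ndufa2, Ndufa6, Ndufb5, Ndufb7, Ndufv2, Sdhb and Uqcrb, where 8.64% of all genes were. This comparison and that of 3 with 2 dpi share the 3 dpi libraries, so opposite values in them are not independent.

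From 4 to 6 dpi no member passed edgeR's quasi-likelihood test, against 0.513% of all genes tested. At an unadjusted p under 0.05 there were 7 of 43 nuclear members and 1 of 9 mt- members, beside 2798 of 14030 genes, and DESeq2 called 1 nuclear member, where it called 5.41% of all genes. These shares of members were not above those of all genes. The median was -0.86 over the mt- members, all 9 of which had negative values, and -0.07 over the nuclear members. All 6 dpi libraries were above all 4 dpi libraries in 1 nuclear member, Ndufb2, as in 11.3% of all genes, and below them in 4 nuclear members and mt-Nd2, as in 10.2%. Without 6 dpi replicate 3, whose mt- share of counts lay in the range of 4 dpi, 5 nuclear and 2 mt- members passed. In that fit 10.0% of all genes did. Without 3 dpi replicate 2 there were 2 nuclear members, where 5.37% of all genes passed.

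The mean of the days 3 to 5 dpi was set against that of 1 and 2 dpi, as a window of fibroblast transition in the study. Each day weighed equally, so the lone 5 dpi library counted as much as all 3 dpi libraries together. Of the mt- members 5 of 9 were lower and none higher, where 2.24% of all genes were called lower and 5.25% higher. The log2 fold change was -2.31 for mt-Co3 (SE 0.63), -2.24 for mt-Nd2 (SE 0.48), -2.09 for mt-Atp6 (SE 0.43), -1.79 for mt-Nd1 (SE 0.39) and -1.33 for mt-Nd4 (SE 0.36), and edgeR's quasi-likelihood test gave adjusted p values from 0.0039 to 0.028. The days within the window differed. Without the 5 dpi library 2 mt- members passed, where 6.15% of all genes did. With the 3 dpi libraries taken out of the window 1 mt- member passed, where 5.28% of all genes did. Without 2 dpi replicate 2 there were 3 mt- members, where 5.6% of all genes passed. Without 3 dpi replicate 2 there were 8, where 11.5% of all genes passed. Among nuclear members 1 was higher, Ndufa4, a small subunit first assigned to complex I and since to complex IV (chr6:11900292-11907497). Its log2 fold change was 1.24 (SE 0.36, adjusted p = 0.040 by edgeR's quasi-likelihood test), and its levels were 5.14 to 5.75 in the 6 libraries of 1 and 2 dpi, 7.01, 5.45, 5.49 and 5.73 at 3 dpi, 6.91, 7.25 and 4.16 at 4 dpi and 7.54 at 5 dpi. The window thus overlapped with the earlier days, and the call was lost without the 5 dpi library or without any of 3 dpi replicate 1, 4 dpi replicate 1 or 2, 1 dpi replicates 1 to 3 and 2 dpi replicates 1 and 2, while 2 and 4 nuclear members passed without 3 dpi replicate 2 (11.5% of all genes) and without 4 dpi replicate 3 (8.51%).

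**Figure D4:**
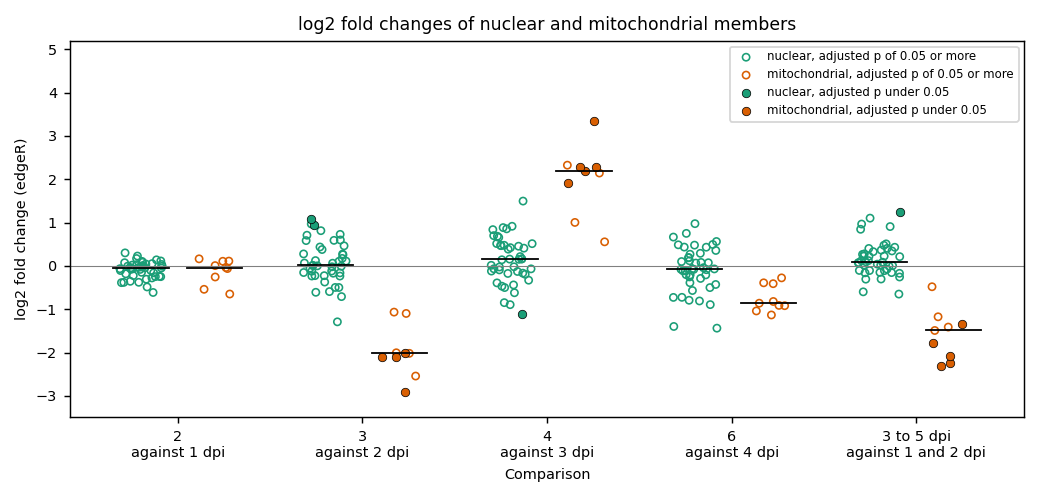
log2 fold changes (edgeR) of the 43 nuclear (green) and 9 mitochondrial (orange) members in 5 comparisons of days; filled points have an adjusted p under 0.05, open points do not, and lines are medians. The mitochondrial medians are -2.02 from 2 to 3 dpi and 2.20 from 3 to 4 dpi, while the nuclear medians stay at 0.01 and 0.15.

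Over all days at once, 5 of 9 mt- members (mt-Nd1, mt-Nd2, mt-Nd4, mt-Co3 and mt-Atp6) and 4 of 43 nuclear members differed between at least 1 pair of days, where 15.0% of all genes did. The adjusted p was 0.0011 for mt-Atp6, 0.0033 for mt-Nd1, 0.0067 for mt-Nd2, 0.019 for mt-Nd4 and 0.048 for mt-Co3 in edgeR's quasi-likelihood test. The mt-Co3 call held in 11 of 25 alternative fits, that of mt-Nd4 in 24 and those of the other 3 in all 25. The nuclear share of 4 in 43 was below the background in this fit. These 4 were Uqcrfs1 (adjusted p = 0.0057 by edgeR's quasi-likelihood test), Cyc1 (0.0093), Cox5a (0.012) and Ndufb7 (0.021), and Ndufb7 passed in 20 of 25 alternative fits. Without 3 dpi replicate 2, 4 dpi replicate 3 or 6 dpi replicate 3 there were 8, 8 and 9 nuclear members past the threshold. In the order named, 24.8% of all genes, 2378 of 13988 and 20.5% passed, each above the 15.0% of the main fit. The nuclear share was below that of all genes without 3 dpi replicate 2. It was slightly above that of all genes without 4 dpi replicate 3 and without 6 dpi replicate 3. There were 3 and 8 mt- members without 3 dpi replicate 4 and without 6 dpi replicate 3.

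In complex I, the NADH dehydrogenase, only Ndufb7 of the 23 nuclear members passed over all days. Ndufb7 is an accessory subunit (chr8:83566671-83571626). It had 7.72, 7.31 and 7.36 at 1 dpi, 7.07, 7.09 and 7.69 at 2 dpi, 6.53, 6.99, 6.62 and 6.64 at 3 dpi, 7.69, 7.70 and 7.26 at 4 dpi, 7.40 at 5 dpi and 8.34, 8.48 and 7.29 at 6 dpi. All its 3 dpi libraries were below all other libraries, although no pair of consecutive days passed for it. The median of the 23 was -0.05 from 2 to 3 dpi and 0.22 from 3 to 4 dpi, with 9 and 15 positive values.

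Complex II, the succinate dehydrogenase, has 4 members here, all nuclear, and none passed in any comparison. Sdha, the flavoprotein subunit, had day means between 5.83 and 6.35 over the 5 replicated days, with 6.35 ± 0.13 (SD, n = 4) at 3 dpi. For Sdhb, the iron-sulfur subunit, the values from 2 to 3 and from 3 to 4 dpi were -0.17 (SE 0.21) and 0.47 (SE 0.21). Sdhc, which anchors the complex in the membrane, had 7.87, 7.66 and 7.55 at 2 dpi, 8.14, 8.20, 8.12 and 8.18 at 3 dpi and 7.76, 7.88 and 7.40 at 4 dpi. Its 3 dpi libraries were above those of 2 and of 4 dpi, with log2 fold changes of 0.46 (SE 0.20) and -0.47 (SE 0.20) and adjusted p = 0.21 in edgeR's quasi-likelihood test for each. Sdhd, the other membrane anchor, was at 4.71 in 3 dpi replicate 2 and between 6.63 and 6.96 in the other 3 dpi libraries.

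In complex III, Cyc1 encodes cytochrome c1 (chr15:76343523-76346260), which hands electrons to cytochrome c. It had 7.72, 8.02 and 7.45 at 1 dpi, 7.85, 7.26 and 7.11 at 2 dpi, 8.21, 8.07, 8.12 and 8.29 at 3 dpi, 7.32, 7.79 and 7.51 at 4 dpi, 7.87 at 5 dpi and 6.85, 6.07 and 6.92 at 6 dpi. The 3 dpi libraries were the highest of all days and the 6 dpi libraries the lowest. Between consecutive days the largest value was -0.89 (SE 0.27, adjusted p = 0.096 by edgeR's quasi-likelihood test) from 4 to 6 dpi. Cycs, the cytochrome c gene itself, had 8.82, 8.28 and 8.35 at 1 dpi, 7.75, 7.76 and 8.13 at 2 dpi, 9.03, 7.42, 8.41 and 8.61 at 3 dpi, 8.50, 8.29 and 7.43 at 4 dpi, 8.96 at 5 dpi and 6.86, 7.16 and 7.82 at 6 dpi. It did not pass over all days (adjusted p = 0.084 by edgeR's quasi-likelihood test). In complex IV, Cox5a was the only nuclear member past the threshold, and the median of the 9 was 0.44 from 2 to 3 dpi and 0.16 from 3 to 4 dpi.

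Among the other protein genes of the mitochondrial genome, mt-Nd3, a complex I subunit, had log2 fold changes of -2.01 (SE 0.52, adjusted p = 0.043) from 2 to 3 dpi and 2.03 (SE 0.52, adjusted p = 0.043) from 3 to 4 dpi in edgeR's quasi-likelihood test. It was called over all days, whereas mt-Nd4l, mt-Nd6 and mt-Atp8 were not, and the median of these 4 was -1.92 from 2 to 3 dpi and 1.19 from 3 to 4 dpi. All 4 were negative from 2 to 3 dpi and positive from 3 to 4 dpi.

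Of the nuclear genes of the pathway that are not members, 2 of 14 further complex I subunits (Ndufa11 and Ndufv3), 0 of 5 further complex III and IV subunits and 3 of 17 ATP synthase subunits (Atp5o, Atp5a1 and Atp5b) were called over all days. Of all genes 15.0% were. Atp5o, a stalk subunit, had -0.63 (SE 0.26, adjusted p = 0.19) from 2 to 3 dpi and 1.24 (SE 0.26, adjusted p = 0.013) from 3 to 4 dpi in edgeR's quasi-likelihood test. Ribosomal proteins of the mitochondrion were called in 6 of 74 and those of the cytosol in 1 of 71, both below the 15.0% of all genes. Medians from 2 to 3 dpi were -0.02 and 0.03, near that of all genes.

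Genes that copy and transcribe mitochondrial DNA were called over all days in 1 of 23, below the 15.0% of all genes. This gene was Tfam, which packages mitochondrial DNA and starts its transcription. Tfam was at 4.52 ± 0.45 (SD, n = 3) at 2 dpi, 5.60 ± 0.29 (n = 4) at 3 dpi and 4.53 ± 0.18 (n = 3) at 4 dpi, and 3 dpi did not overlap with either. It rose by 1.05 (SE 0.28, adjusted p = 0.045) from 2 to 3 dpi and fell by 1.09 (SE 0.28, adjusted p = 0.043) from 3 to 4 dpi in edgeR's quasi-likelihood test, the days on which mt- members fell and rose. Regulators of mitochondrial biogenesis were called in 1 of 10, beside the same 15.0% of all genes. The gene called was Myc (adjusted p = 0.0014 by edgeR's quasi-likelihood test).

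In the tricarboxylic acid cycle 3 of 17 genes were called over all days, a share near the 15.0% of all genes, Idh3a, Idh2 and Dlat. Idh3a, the catalytic subunit of the NAD-dependent isocitrate dehydrogenase, was at 5.40 ± 0.09 (SD, n = 3) at 2 dpi, 6.53 ± 0.38 (n = 4) at 3 dpi and 5.44 ± 0.23 (n = 3) at 4 dpi. Its log2 fold changes were 1.17 (SE 0.24, adjusted p = 0.011) and -1.12 (SE 0.24, adjusted p = 0.014) in edgeR's quasi-likelihood test. Idh2, the NADP-dependent enzyme, rose by 0.99 (SE 0.24, adjusted p = 0.031 by edgeR's quasi-likelihood test) from 2 to 3 dpi, and Dlat, of the pyruvate dehydrogenase complex, fell by 1.05 (SE 0.25, adjusted p = 0.032 by edgeR's quasi-likelihood test) from 3 to 4 dpi. Assembly factors were called in 7 of 41, also near the background, led by Sco2 and Cox18, which serve complex IV, and Foxred1, which serves complex I. From 2 to 3 dpi Cox18 rose by 1.03 (SE 0.27, adjusted p = 0.043 by edgeR's quasi-likelihood test) and Sco2 had -0.88 (SE 0.26, adjusted p = 0.066 by edgeR's quasi-likelihood test).

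Alternative subunit isoforms, made in muscle, testis or low oxygen, were called over all days in 4 of 6, where 15.0% of all genes were. All 4 were near the floor at 1 dpi, such as Cox8b at 1.12 to 1.45 CPM, so the size of their changes is less certain. Cox6b2, the testis form of a complex IV subunit (chr7:4751792-4753094), had -0.08 ± 0.36 (SD, n = 3) at 1 dpi, 0.91 ± 0.44 (n = 3) at 2 dpi, 1.17 ± 0.53 (n = 4) at 3 dpi, 2.38 ± 0.82 (n = 3) at 4 dpi, 3.52 in the 5 dpi library and 3.78 ± 0.87 (n = 3) at 6 dpi. Its day means were thus higher on each later day, and it was 2.10 higher (SE 0.37, adjusted p = 0.0011 by edgeR's quasi-likelihood test) at 3 to 5 dpi than at 1 and 2 dpi. The muscle forms Cox6a2, Cox7a1 and Cox8b of complex IV were the other 3, with means of 4.44, 3.68 and 3.52 at 6 dpi against 1.56, 0.98 and 0.39 at 1 dpi. These 3 also belong to the list of 17 cardiomyocyte genes, 15 of 16 tested of which were called over all days.

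Markers of other cell types moved on the same days. Summed cardiomyocyte markers ran at 51.6 to 73.4 CPM at 1 dpi, 27.8 to 48.5 at 2 dpi, 23.3 to 34.6 at 3 dpi, 82.3 to 127 at 4 dpi, 57.2 at 5 dpi and 176 to 431 at 6 dpi. Of the 16 tested, 1 was lower from 2 to 3 dpi and 8 were higher from 3 to 4 dpi, where 13 of the 16 had positive values. All of the markers but Mybpc3, Pln and Ryr2 had counts in every library. At 6 dpi, where these markers were highest, their sum in replicates 1, 2 and 3 was 176, 431 and 284 CPM and the mt- share was 0.457%, 0.424% and 1.71%. Erythroid markers were at 19.5 to 182 CPM at 2 dpi, 2.13 to 30.2 at 3 dpi and 272 to 2687 at 4 dpi, and 4 of 5 were called higher from 3 to 4 dpi and 2 lower from 2 to 3 dpi. Leukocyte markers were at 14.4 to 24.6 CPM at 2 dpi, 54.9 to 239 at 3 dpi and 25.3 to 35.4 at 4 dpi, and 3 of 7 tested were called higher from 2 to 3 dpi. In 3 dpi replicate 2 their sum was the lowest of that day, while Csf1r, at 28.7 CPM, was at its highest of all libraries. Cd3e was at 0 in all libraries, and Ptprc (CD45) was at 0 in 12 of 17, among them replicates 1 and 2 of 3 dpi. Pericyte and smooth muscle markers were at 59.9 to 75.7 CPM at 2 dpi, 81.0 to 142 at 3 dpi, 88.7 to 178 at 4 dpi and 206 in the 5 dpi library, and 2 of 6 were called higher from 2 to 3 dpi and 3 of 6 at 3 to 5 dpi. Endothelial markers were at 22.9 to 145 CPM at 2 dpi, 35.8 to 161 at 3 dpi and 27.4 to 44.2 at 4 dpi, and 1 of 6 tested was called higher from 2 to 3 dpi. The part of these cells in the mt- values was not tested. Where only the libraries richer in Y-linked than in Xist counts were kept, the window comparison called 5 mt- members and 6.02% of all genes. This leaves out every 4 dpi library, so the window then holds 3 and 5 dpi alone, and the part of the sex pattern cannot be told apart from that of the day.

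**Figure D5:**
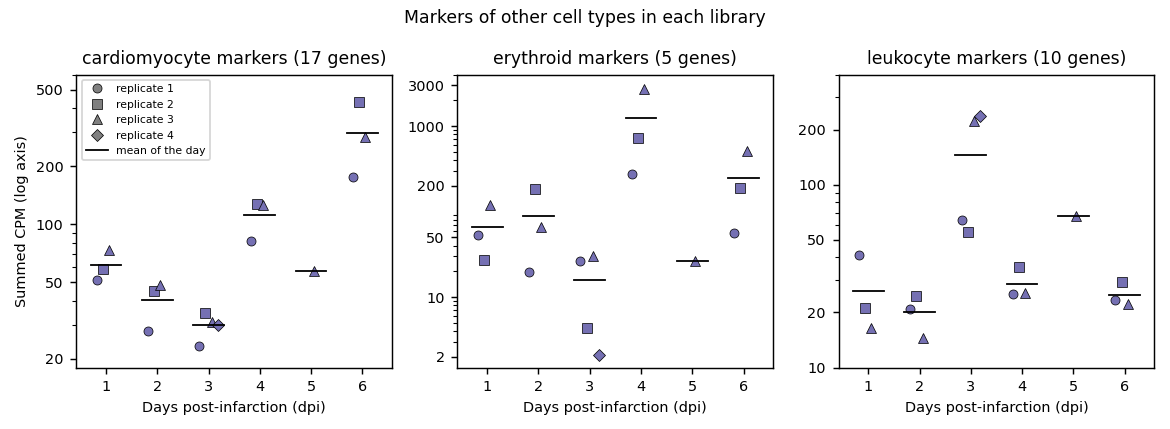
Summed CPM (log axes, each panel its own scale) of markers of cardiomyocytes, erythroid cells and leukocytes in each library against days post-infarction; points are libraries, shaped by replicate number, and lines are means of the day. At 3 dpi the first 2 have their lowest mean, with libraries up to 34.6 and 30.2 CPM, and leukocyte markers reach 239 CPM.

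Some members match other genes at their 3' end, so their counts are less certain. Of the nuclear members, 6 match another gene of the table at 97% identity or more over at least 68 of their last 300 bases. Cox5b matched Gm11273, which held 40.1% of their joint counts, Ndufb6 matched Smim27 (14.8%) and Ndufb2 matched Braf (10.2%). The search took both strands, so a matching gene may lie on the opposite strand. None of the nuclear members past a threshold matched a gene in the table, but Cox5a matched 1 gene that is not among the rows analysed here. Of the mt- members, mt-Co1, mt-Co2, mt-Co3 and mt-Atp6 match nuclear copies that are not among the rows analysed here.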

How the data were processed

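The members and gene lists were chosen with earlier results of these data known. Deposited values are raw counts per Ensembl gene in 17 MARS-seq libraries. The authors pooled up to 8 samples for amplification, demultiplexed with bcl2fastq 1.2.4, aligned with STAR 2.6.1 to mm10 and counted reads with featureCounts on Ensembl GRCm38.91, and no collapsing of duplicate molecules is named, so reads may not be independent molecules. Depth ran from 8021815 to 22029938 counts (median 14123952). Symbols were matched by Ensembl ID for 30934 of 31053 rows.

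Groups are the days in the labels. The 5 dpi library is replicate 3 in its title and 1 in its description. The labels do not say that replicates are separate animals, so p-values measure the spread between these samples. The filter asked for 10 counts or more in 3 libraries or more and left 14030 genes, tested with edgeR 4.0.16 (TMM, quasi-likelihood, day as a factor over all 17 libraries, Benjamini-Hochberg, threshold 0.05, R 4.3.3), and SEs were derived from the F statistic. DESeq2 1.42.0, used by the study, other scalings and filters, and leaving out libraries were alternatives. The scripts were tested on simulated data. Of genes given there a log2 fold change of 1, 17.3% were called for 3 against 2 dpi and 8.2% for 4 against 3 dpi. Of genes given 2, the shares called were 68.0% and 67.0%. A member that did not pass is thus not shown to be unchanged. No pair of replicates matched within sampling noise. Named were all mt- members, all of complex II and Cycs, in each comparison the 3 largest rises and falls among nuclear members past the threshold, and in each list up to 3 genes with the smallest adjusted p over all days; others are named where groups did not overlap. Matches to the 3' ends were searched on both strands with BLAST 2.17.0 in the GENCODE vM21 transcripts (GRCm38), whose coordinates are printed. Rows of mt-Rnr1, mt-Rnr2 and Ndufb1-ps were not analysed here.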

Additional observations from a re-analysis of the deposited data

Results flagged for a closer look

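At 3 dpi, the day with 4 libraries, 57 measures (the 52 member levels and 5 summaries) were examined for a library far from the other 3, and 10 passed Dixon's critical value for 4 samples, where chance gives about 1 in 20, or 2.85. In 9 of the 10 the library was 3 dpi replicate 2. Its log2 CPM was 4.76 for Ndufa1, 6.57 for Ndufa6, 5.31 for Ndufb5 and 4.71 for Sdhd, below the other 3 libraries of the day. It was 7.99 for Ndufb8, 8.11 for Ndufs7, 8.15 for Ndufv1 and 7.63 for Uqcrc1, above the other 3. For Uqcrfs1 it was 7.07, below the others. In the tenth, the mean level of the 43 nuclear members, 3 dpi replicate 1 stood at 7.35, above the other 3. Replicate 2 was therefore low in 5 of these members and high in 4, and the cause was not tested.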

How the results depend on the processing

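No member past the threshold reversed its direction under an alternative. The nuclear mean, whose libraries overlapped between 2 and 3 dpi, changed sign with the scaling (3 minus 2 dpi: -0.0039 with TMM, 0.0313 with raw totals and 0.0124 with DESeq2 factors), so it has no direction there, and scaling cancels in the gap between mt- and nuclear means. mt-Atp6 passed in 26 of 26 alternatives for 3 against 2 dpi and for 4 against 3 dpi. Counts of members past the threshold are given as nuclear or mt-, with the main count first, and the cause of each move was not tested. Over all days the nuclear count went from 4 to 14 with DESeq2, 13 with every gene of at least 1 count and 17 without 3 dpi replicate 2 and 6 dpi replicate 3 together (chosen after seeing the data), where 26.8%, 18.1% and 33.9% of all genes passed, and the mt- count from 5 to 9 in both of the latter fits. For 3 against 2 dpi the nuclear count went from 2 to 1 with upper-quartile scaling, scaling without mt- genes, raw totals or only these days' libraries. In the order named, 2.86%, 2.92%, 2.37% and 1.95% of all genes passed. The nuclear count went to 4 with DESeq2 and to 5 without both libraries. The mt- count went from 4 to 7 with DESeq2, 8 with every gene, 2 with only these days' libraries and 9 without both. With DESeq2, with every gene and without both, 7.36%, 4.76% and 8.51% of all genes passed. For 4 against 3 dpi the nuclear count went from 1 to 2 with raw totals or 10 counts in every library, 5 with DESeq2 and 3 with every gene. It was 0 with only these days' libraries and 6 without both. In the order named, 2.1%, 3.58%, 6.11%, 4.21%, 0.976% and 8.03% of all genes passed. The mt- count went from 5 to 2 with only these days' libraries. For 6 against 4 dpi the nuclear count went from 0 to 1 with DESeq2, 2 with every gene and 13 without both. In the order named, 5.41%, 4.29% and 19.9% of all genes passed. The mt- count went from 0 to 1 with every gene and 5 without both. For the window of 3 to 5 dpi the nuclear count went from 1 to 5 with every gene or without both. It was 2 among libraries richer in Y-linked than in Xist counts, and 0 with only these days' libraries or without the 5 dpi library. In the order named, 7.22%, 14.1%, 6.02%, 7.76% and 6.15% of all genes passed. The mt- count went from 5 to 8 with every gene or without both and to 2 without the 5 dpi library. It was 1 with the 3 dpi libraries out of the window, where 5.28% of all genes passed.

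Leaving out each library in turn gave 3 to 9 nuclear and 3 to 8 mt- members over all days, 0 and 0 for 2 against 1 dpi, 0 to 3 and 1 to 6 for 3 against 2 dpi, 0 to 4 and 1 to 6 for 4 against 3 dpi, 0 to 5 and 0 to 2 for 6 against 4 dpi, and 0 to 4 and 3 to 8 for the window. In the same order, the share of all genes passing ran from 9.38% to 24.8%, 0.0928% to 0.229%, 0.33% to 5.25%, 0.904% to 5.17%, 0.0215% to 10.0% and 5.6% to 11.5%. The gap between mt- and nuclear mean levels was then 2.85 to 2.94 at 1 dpi, 2.76 to 2.99 at 2 dpi, 0.14 to 0.89 at 3 dpi, 2.42 to 2.89 at 4 dpi and 1.07 to 2.12 at 6 dpi. Calls over all genes also moved: without both libraries they went from 412 to 1183 for 3 against 2 dpi, from 380 to 1117 for 4 against 3 dpi and from 72 to 2771 for 6 against 4 dpi, and with DESeq2 to 1033, 857 and 759. With raw totals 133 of 295 calls from 3 to 4 dpi were higher, against 228 of 380. Equal replicate numbers did not pair the libraries (mean correlation of deviations 0.01 over 30 pairs), and with the replicate block 0 nuclear members passed for 3 against 2 dpi and for the window, where all genes gave 174 and 885 calls. The 5 dpi day has 1 library, and uninfarcted CFs were not analysed here.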
